A study of Homo sapiens with 22 samples.

Results

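A list of 10 genes of the extracellular matrix was followed through the single-cell and chromatin data of a study of drug-susceptible and primed melanoma cells: MGP, the small leucine-rich proteoglycans BGN, DCN, LUM and PRELP, the large proteoglycan VCAN, and the matrix regulators SPOCK1, AEBP1, HTRA1 and OLFML2A. They were taken by symbol, and all 10 were present among the 33538 genes of the untreated WM989 table and the 36601 genes of each of the other tables. The list was drawn up with the levels of these genes by cluster, state and treatment in view. Their levels by cluster and state are therefore given as a description with no test, and the p-values of the treatment comparisons set a change against the spread between libraries without being independent support for it. Chromatin was not used in the choice.

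The study asked how melanoma cells keep or leave a rare primed state, in which cells are more likely to survive targeted therapy than the drug-susceptible majority. Its 22 samples comprised 1 single-cell series of untreated WM989 cells read over 8 wells, 1 untreated WM983B library, 8 treated WM989 libraries and 12 chromatin libraries. WM989 A6-G3 and WM983B E9-D5 are human melanoma lines that had each been grown out of single cells, so each experiment describes 1 clone, and WM989 carries an activating BRAF mutation. The state of every cell was assigned by the authors per cluster of the same counts, as primed or drug-susceptible.

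The untreated WM989 cells carried a lentiviral GFP barcode library, had been sorted as EGFR- and NGFR-high or as a mixed population, and were grown before capture. Their 8 wells belong to replicates r1 and r2 and include technical splits of 1 culture, so the spread over wells may be smaller than that over cultures. For the treatment experiment barcoded WM989 cells were, in each replicate, expanded from 1 well and divided over plates that received no drug (Control), 5 ng/mL TGFB1, 4 µM of the TGF-β receptor inhibitor LY2109761 (TGFBRi) or 2 µM of the PI3-kinase inhibitor GDC-0941 (PI3Ki) for 5 days, with 2 libraries (r1 and r2) a treatment. The sample labels also hold the word Mix or Primed before each treatment, while the methods describe parallel replicates and do not explain these words. Which of r1 and r2 carries which word is not given in the sources used here. The libraries of a treatment may thus differ in more than handling. OMNI-ATAC, an assay of open chromatin, was done on WM989 cells sorted as EGFR_High, NGFR_High, EGFR_NGFR_High or Mix, with 3 libraries each. EGFR and NGFR are proteins that the study used to enrich the primed state. Its methods name, beside the 3 marker-high sorts, a sort negative for both, which was matched to the label Mix by elimination, so an unselected population cannot be told apart from it here.

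MGP, matrix Gla protein, is a small secreted protein that needs vitamin K dependent carboxylation and is best known for holding back calcification of cartilage and vessel walls and for binding bone morphogenetic proteins. The small leucine-rich proteoglycans coat collagen fibrils, set their spacing and bind growth factors of the TGF-β family, and VCAN is a large chondroitin sulfate proteoglycan that binds hyaluronan. SPOCK1 is a testican, a secreted proteoglycan of the SPARC family. AEBP1 is a secreted collagen-binding protein with a carboxypeptidase-like domain, HTRA1 is a secreted serine protease that cuts matrix proteins and proteoglycans, and OLFML2A is a secreted protein with an olfactomedin domain.

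The untreated WM989 wells held 2843 primed and 9688 drug-susceptible cells (408 to 3841 cells a well) with a median of 53571 UMIs a cell, the WM983B library held 1449 cells with a median of 66668, and the treated libraries held 40021 cells (3692 to 6273 each) with a median of 16321. A UMI is a tag that marks 1 captured RNA molecule, and levels are given as CPM, the UMIs of a gene in each 1000000 UMIs of the summed cells, a scale that in a 3′ kit does not grow with transcript length. Intervals in parentheses after a CPM or a share are exact 95% intervals (Poisson or Clopper-Pearson) and cover counting error only. Of the WM983B cells 731 were primed, and of the treated cells 4077. Of the cell barcodes, 0.152% were shared between wells and 0.487% between treated libraries. The melanocytic marker list summed to 273.9 CPM in the primed untreated WM989 cells and to 5456 CPM in the rest. A list of 10 fibroblast markers summed to 255.4 CPM in primed cells (120.9 to 333.6 over wells) against 4.44 CPM in drug-susceptible cells (2.75 to 14.1), with 5 of its genes above 1 CPM in primed cells, most of it COL1A1 at 160.1 CPM, and PI16 at 0. PDGFRA stood at 47.3 CPM in primed cells against 0.734 in the rest, FAP at 29.8 against 0.244 and PDGFRB at 13.5 against 0.910. In the treated libraries the list summed to 253.8 CPM in primed (33.2 to 303.7 over libraries) against 3.17 CPM in drug-susceptible cells (1.53 to 9.36). That list therefore moved with the primed state in both WM989 experiments, as BGN and SPOCK1 did, and its part in their levels was not tested. In primed and drug-susceptible untreated cells the endothelial list stood at 25.5 and 0.654 CPM. Its primed level was mostly PECAM1 at 22.8 CPM, with CDH5 and CLDN5 at 0.0052 CPM each. The pericyte list stood at 43.8 and 147.3 CPM, the latter mostly MCAM (98.0) and CSPG4 (48.1). The leukocyte list, with CD3E at 0 in primed cells, stood at 92.1 and 45.7, nearly all of it CD68. The epithelial list, with KRT5 at 0 in both, stood at 150.4 and 82.4. Its primed level was mostly KRT18 (110) and KRT8 (40.3), with EPCAM at 0.0052 CPM.

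In untreated WM989 cells the 10 genes fell on both sides of the state boundary. Levels of BGN, SPOCK1, HTRA1 and DCN were higher in primed cells in 8 of 8 wells, by 4.46 to 227 times, and those of OLFML2A by 1.58 times, whereas levels of MGP, LUM and AEBP1 were lower in primed cells in 8 of 8 wells, by 1.44 to 13.5 times. Of the 6316 genes that reached 20 CPM in 1 of the states or both, 10.4% were over 2-fold higher and 6.56% over 2-fold lower in primed cells.

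MGP was the member furthest to the drug-susceptible side. Its level was 1.48 CPM in primed cells against 20 CPM in the rest, a 13.5-fold difference. Over the wells it ran from 0.296 through a median of 1.48 to 4.97 CPM in primed cells and from 2.81 through 18.6 to 44 CPM in drug-susceptible cells. Every well placed its own primed cells lower, yet the ranges overlapped, because the drug-susceptible cells of wells 5 and 6 stood at 4.37 and 2.81 CPM. The difference was 9.78-fold in r1 and 24.5-fold in r2. MGP lies on chromosome 12 at 14880864 to 14885857 (hg38, minus strand, 4 exons).

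BGN, biglycan, was high in primed cells and close to absent elsewhere. It stood at 164 CPM in primed cells against 2.08 CPM in the rest, a 78.9-fold difference. Over the wells the primed cells ran from 81.6 through a median of 119.9 to 240.2 CPM and the drug-susceptible cells from 1.03 through 2.70 to 5.30 CPM, with no overlap. The gene lies on chromosome X at 153494980 to 153509546 (plus strand). Its promoter, shown because BGN had the second largest difference between states of the list, is given as 250 bases before to 50 bases after the start in RefSeq (GRCh38.p14, chrX:153494730-153495029, plus strand), with 71.7% G or C. Capitals, here absent, would mark the letters TGANTCA, where N is any base. AP-1 factors can bind some forms of these letters, and none occurs in this promoter on either strand.

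BGN promoter: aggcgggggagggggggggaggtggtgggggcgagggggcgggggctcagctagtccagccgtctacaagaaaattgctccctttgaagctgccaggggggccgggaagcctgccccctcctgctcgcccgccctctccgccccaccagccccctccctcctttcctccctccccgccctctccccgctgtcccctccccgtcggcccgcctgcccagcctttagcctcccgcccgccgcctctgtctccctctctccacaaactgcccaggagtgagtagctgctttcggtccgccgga

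A peak of open chromatin touched the 1000 bases before to 500 after this start in 11 of 12 libraries. Its fold enrichment over background was 5.38 and 7.54 in Mix libraries 1 and 2 with no peak in Mix 3, 6.40, 8.98 and 7.83 in EGFR_High, 11.5, 11.8 and 7.99 in NGFR_High and 11.6, 9.92 and 7.44 in EGFR_NGFR_High. A peak was thus present in every sort, the NGFR_High values lay above those of Mix, and the EGFR_NGFR_High values overlapped them. With a Mix library lacking a peak, the promoter was not tested.

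DCN, decorin (chromosome 12, 91140484 to 91183217, minus strand), which binds collagen and TGF-β, was low throughout. It stood at 6.19 CPM in primed cells against 1.33 CPM, 4.65-fold apart, with wells from 4.11 through 7.24 to 11.2 CPM against 0.777 through 1.25 to 1.79 CPM and no overlap. LUM, lumican (chromosome 12, 91102629 to 91111494, minus strand), a keratan sulfate proteoglycan of collagen fibrils, went the other way at 16.9 and 32.2 CPM. Its wells ran from 11.2 through 15.6 to 21.2 CPM in primed cells and from 24.4 through 30.4 to 39.3 CPM in the rest, a 1.91-fold difference with no overlap. PRELP (chromosome 1, 203475806 to 203491352, plus strand), which anchors basement membrane to connective tissue, stood at 4.61 and 9.70 CPM, with wells from 3.62 through 4.88 to 7.36 against 5.92 through 9.34 to 18.1. PRELP was lower in the primed cells of 6 wells and higher in those of 2, so its direction was not the same in all wells. Within the same family of secreted proteoglycans BGN and DCN were thus on the primed side and LUM on the other.

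VCAN (chromosome 5, 83471618 to 83582303, plus strand) was nearly silent in WM989, with 19 UMIs in 18 of the untreated cells (0.144%) and 7 UMIs in 7 of 40021 treated cells. WM983B cells held 990 VCAN UMIs in 535 of 1449 cells (36.9%). The lines were captured in separate experiments, so line and experiment cannot be told apart.

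SPOCK1 had the largest difference between states of the list. It stood at 94.4 CPM in primed cells against 0.415 CPM in the rest, a 227-fold difference. The primed cells of the wells ran from 33.8 through 79.1 to 134 CPM and the drug-susceptible cells from 0.0703 through 0.514 to 3.61 CPM, with no overlap. The largest drug-susceptible values, 2.52 and 3.61 CPM, were those of wells 5 and 6. These wells had the deepest cells and also the highest SPOCK1 level over all their cells, 103 and 87.0 CPM against 49.5 CPM or less in the other wells, and the part of RNA freed from primed cells in the drug-susceptible values was not tested. SPOCK1 lies on chromosome 5 at 136975298 to 137598379 (minus strand).

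Pooled over states, AEBP1 was the most abundant and most widely found member in untreated WM989 cells, with UMIs in 97.7% of them. In primed cells BGN, at 164 CPM, was above it. AEBP1 stood at 111 CPM in primed cells against 161 CPM, 1.44-fold apart. Its wells ran from 94.0 through 116 to 143 CPM in primed cells and from 137 through 187 to 248 CPM in the rest, lower in the primed cells of each well although the ranges overlapped. AEBP1 lies on chromosome 7 at 44104345 to 44114562 (plus strand).

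HTRA1 stood at 68.6 CPM in primed cells against 15.4 CPM, 4.46-fold apart. Its wells ran from 20.7 through 58.6 to 86.0 CPM in primed cells and from 12.9 through 19.2 to 26.5 CPM in the rest, higher in the primed cells of each well with overlapping ranges. The gene lies on chromosome 10 at 122458551 to 122514907 (plus strand), and its canonical transcript starts 3002 bases inside that record. The promoter at that start (RefSeq, GRCh38.p14, chr10:122461303-122461602, plus strand), shown because HTRA1 answered TGFB1 in both states, had 80.7% G or C and no TGANTCA letters on either strand.

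HTRA1 promoter: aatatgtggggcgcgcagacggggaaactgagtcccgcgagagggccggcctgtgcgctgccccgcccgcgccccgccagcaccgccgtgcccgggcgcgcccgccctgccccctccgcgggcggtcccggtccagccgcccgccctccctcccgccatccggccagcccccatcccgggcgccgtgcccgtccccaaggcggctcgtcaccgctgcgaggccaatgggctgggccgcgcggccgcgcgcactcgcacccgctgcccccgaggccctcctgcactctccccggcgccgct

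A peak covered this start in 12 of 12 chromatin libraries, with fold enrichment of 8.06, 5.66 and 5.32 in Mix, 6.40, 8.51 and 8.32 in EGFR_High, 9.54, 10.1 and 8.46 in NGFR_High and 12.2, 10.9 and 6.45 in EGFR_NGFR_High. The 3 NGFR_High libraries lay above the 3 Mix libraries, by 0.58 ± 0.22 on the log2 scale (SE, limma across all promoters, adjusted p = 0.208), which did not pass the threshold, and the median promoter of that comparison stood at 0.14. The region over this start also overlaps an exon of another gene on the opposite strand, so the peak cannot be assigned to HTRA1 alone.

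OLFML2A (chromosome 9, 124777133 to 124814885, plus strand) stood at 7.58 CPM in primed cells against 4.79 CPM, 1.58-fold apart. Its wells ran from 5.29 through 8.09 to 12.3 CPM against 3.31 through 5.18 to 8.48 CPM, higher in the primed cells of each well with overlapping ranges.

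**Figure D1:**
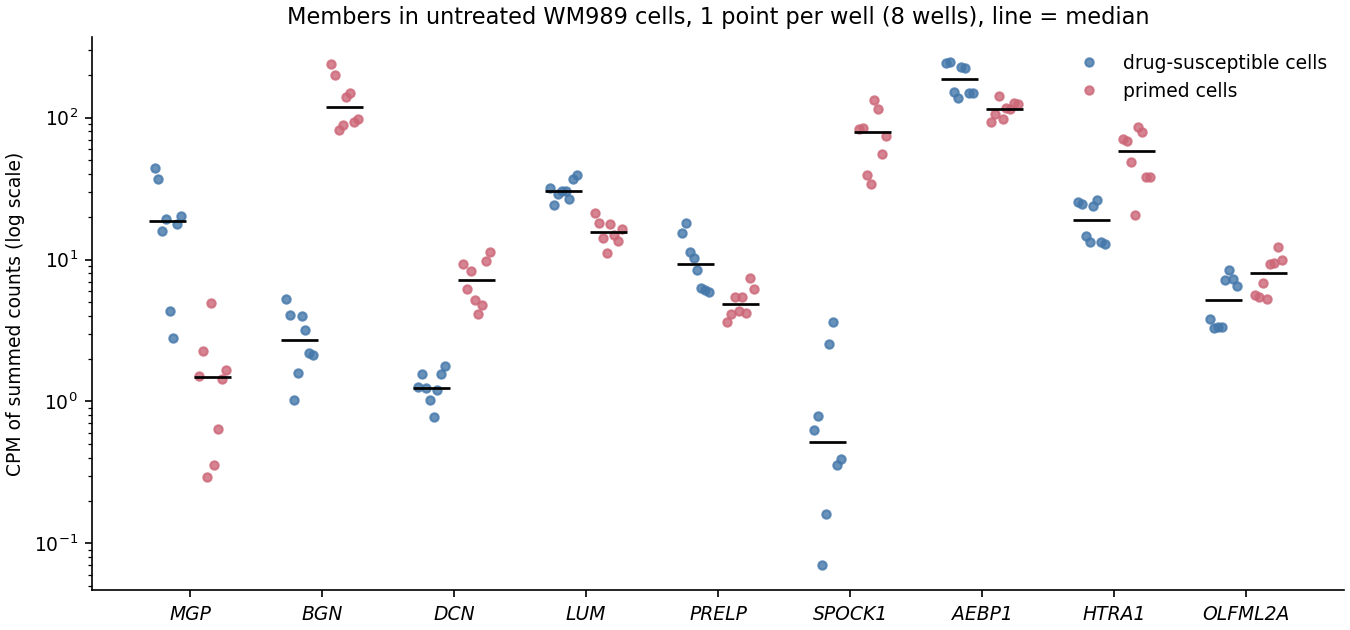
Level in CPM (log axis) of 9 members in the drug-susceptible and primed cells of each of the 8 untreated WM989 wells, 1 point a well, with a line at the median of the wells. VCAN is not drawn. BGN (81.6 to 240.2 in primed, 1.03 to 5.30 in drug-susceptible cells) and SPOCK1 are widely apart, whereas MGP lies lower in the primed cells.

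Clusters within a state differed as much as the states did for several members. The clusters were built from these same counts, so their levels are a description. In the 11 clusters of untreated WM989 cells MGP ran from 0.595 CPM in primed cluster 2 and 0.598 CPM in primed cluster 9 to 79.4 CPM (77.2 to 81.7) in drug-susceptible cluster 4. Cluster 4 was the highest in both replicates, at 56.1 CPM in r1 and 136.6 CPM in r2. Clusters 3 and 6 followed at 26.5 and 26.0 CPM in the pooled cells, but their order turned between replicates. Cluster 3 stood at 32.3 CPM (30.9 to 33.9) in r1 and 9.31 CPM (7.98 to 10.8) in r2, and cluster 6 at 24.5 CPM (22.5 to 26.7) and 28.2 CPM (25.6 to 31.1). The remaining drug-susceptible clusters stood at 4.99 to 10.3 CPM when pooled. The primed cluster 8, at 6.09 CPM pooled, was above drug-susceptible cluster 5 in r1 (8.91 against 7.10 CPM) and below it in r2 (1.79 against 2.56 CPM).

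Cluster 4 made up 9.59% of the untreated cells and held 42.5% of the MGP UMIs. MGP was seen in 27.0% of its cells, at a median of 45304 UMIs a cell, and in 2.52% of the cells of cluster 2, at a median of 62895. Thinned to 10000 UMIs a cell, the shares were 13.6% and 0.693%. AEBP1 also peaked in cluster 4, at 277.6 CPM against 95.8 to 153 CPM in the other clusters, as did PRELP at 25.1 CPM and OLFML2A at 9.70 CPM. Over wells 1 to 8, with 15 to 418 cells of cluster 4 each, the MGP level of that cluster was 123, 89.1, 17.2, 46.8, 7.22, 4.09, 153.8 and 176.3 CPM. Wells of 1 line thus differed widely in it, and they include differently sorted cells and technical splits of 1 culture.

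**Figure D2:**
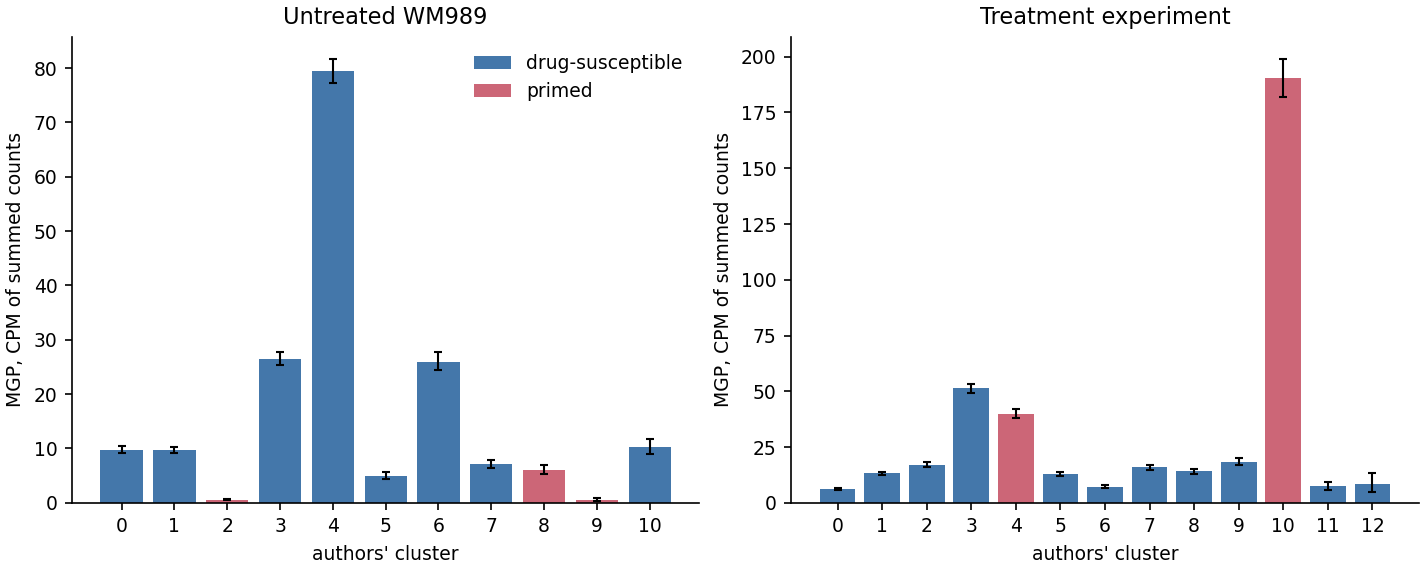
MGP level in CPM in each cluster of the untreated WM989 and treated WM989 experiments, with clusters marked as primed or drug-susceptible. Bars start at 0 and error bars are exact Poisson 95% intervals. The highest untreated cluster is drug-susceptible cluster 4 at 79.4 and the highest treated cluster is primed cluster 10 at 190.4.

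The members high in primed cells shared a different order. BGN stood at 193.4 CPM in cluster 2, 155 in cluster 9 and 71.6 in cluster 8, SPOCK1 at 113.3, 83.2 and 43.2, and HTRA1 at 82.0, 57.9 and 36.6. For all 3 genes the order was thus cluster 2, 9 and 8. DCN was highest in clusters 2 (7.34 CPM) and 8 (6.35), whose order turned between replicates (8.17 and 5.60 CPM in r1, 6.41 and 7.50 CPM in r2), and lower in cluster 9 (3.42). Pooled over replicates, LUM was highest in drug-susceptible clusters 6 (39.7) and 5 (39.4) and lowest in cluster 9 (8.04), with drug-susceptible cluster 3 (13.9) close to the primed clusters.

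Few cells carried most of the MGP. Of 11456 MGP UMIs in the untreated WM989 cells, 59.8% lay in the 125 cells (1%) with the most, and 22.3% in the top 0.1%. The same 1% share of cells held 33.4% of the UMIs of DCN, 27.2% of SPOCK1, 25.5% of BGN, 17.8% of HTRA1, 14.7% of PRELP, 14.5% of OLFML2A, 8.78% of LUM and 6.0% of AEBP1. MGP UMIs were seen in 2106 cells (16.8%), close to the 17.9% for SPOCK1 and 21.0% for BGN. The number of cells with a UMI thus does not set MGP apart from those genes, while the share in the top cells does. The part of RNA freed from other cells in these numbers was not tested. A single cell held 583 MGP UMIs, which was 35.7% of the MGP UMIs of the drug-susceptible cells of well 8. In the treated cells 47.7% of the 13349 MGP UMIs lay in 400 of 40021 cells, above the 42.7% for BGN and 42.3% for SPOCK1, and below the 66.7% for DCN, which had UMIs in 1.53% of cells. In WM983B it was seen in 12.7% of cells and the top 14 cells held 27.9% of its 262 UMIs. A CPM level of MGP in a small group of cells can thus rest on a few cells.

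**Figure D3:**
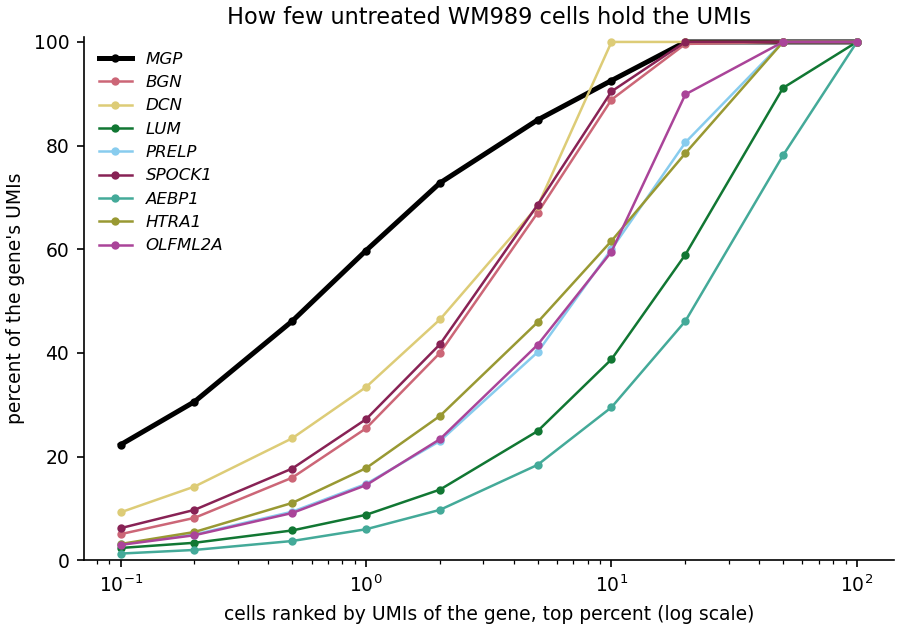
Cumulative share of a gene's UMIs (percent, vertical axis) held by the cells with the most UMIs of that gene (top percent of cells, log axis) for 9 members in untreated WM989 cells. The MGP curve rises first, to 59.8% in the top 1% of cells, and the AEBP1 curve last, at 6.0%.

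In the single WM983B library the states were closer for most members, and there is no replicate to set a difference against. MGP stood at 2.56 CPM (2.13 to 3.05) in primed cells and 2.54 CPM (2.13 to 3.0) in the rest. BGN, SPOCK1 and HTRA1, all high in primed WM989 cells, stood at 0.819 and 0.538, 4.18 and 5.99, and 11.3 and 13.7 CPM. VCAN was the member with a 2.02-fold higher level in primed cells, at 13.1 CPM (12.1 to 14.2) against 6.49 CPM (5.83 to 7.21), and OLFML2A stood at 5.98 against 3.14 CPM. LUM (83.3 and 99.9 CPM) and AEBP1 (49.3 and 71.3 CPM) were lower in primed cells, as in untreated WM989 cells, and DCN and PRELP lay between 1.17 and 1.74 CPM in both states. Of the 6856 genes at 20 CPM or more in either state of this line, 1.3% were over 2-fold higher and 0.686% over 2-fold lower in primed cells, so the labels separate fewer genes here than in WM989.

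In the treatment experiment the direction of MGP turned. Its level was higher in the primed than in the drug-susceptible cells of all 8 libraries, pooled at 69.8 against 15.3 CPM (4.55-fold). Primed cells ran from 45.6 through a median of 101.7 to 375 CPM and drug-susceptible cells from 6.56 through 10.3 to 43.5 CPM, with no overlap. The untreated Control libraries of this experiment had the same direction, at 108 and 296 CPM in their 94 and 165 primed cells against 8.90 and 11.4 CPM in their drug-susceptible cells. BGN and SPOCK1 kept theirs, at 129 against 1.57 CPM and 108 against 0.475 CPM, although SPOCK1 had 0 UMIs in the 25 primed cells of the PI3Ki r1 library. HTRA1, at 296 against 25.1 CPM, was higher in the primed cells of 7 of 8 libraries.

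The cells called primed were not alike in the experiments. Primed untreated cells had SOX10 at 7.09 CPM and MITF at 45.7 CPM, both melanocyte lineage factors, whereas the primed cells of Control r1 and r2 had SOX10 at 70.8 and 69.6 CPM and MITF at 126 and 127.6 CPM. Of the 4077 primed treated cells, 3334 were from TGFB1 libraries, and a pooled primed level there is mostly that of TGFB1. AEBP1 shows it: pooled, it was 2.25 times higher in primed cells (483 against 214 CPM), yet it was higher in the primed cells of 2 of 8 libraries, both TGFB1. The part of these differences in the direction of MGP was not tested.

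The treated primed cells formed clusters 4 and 10, which differed in most members. Levels here are pooled over treatments, and nearly all cells of cluster 4 were from TGFB1 libraries (3254), as were most of drug-susceptible cluster 3 (3801), so cluster and treatment cannot be told apart in them. MGP stood at 190.4 CPM (182 to 199) in cluster 10, the highest of the 13 clusters, at 51.3 CPM in drug-susceptible cluster 3 and at 40.0 CPM in cluster 4, with the others at 6.08 to 18.4 CPM. AEBP1 was highest in clusters 3 (637.8 CPM) and 4 (566), HTRA1 in cluster 4 (360), and OLFML2A in cluster 3 (24.7). BGN stood at 146.8 CPM in cluster 4 and 58.8 in cluster 10, and SPOCK1 at 128.4 and 23.8. PRELP (8.92) and DCN (4.46) were highest in cluster 10 and LUM in drug-susceptible cluster 8 (32.5). Cluster 10 thus paired high MGP with lower BGN and SPOCK1 than cluster 4 had.

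Treatment was compared with Control over summed counts of the 8 libraries by edgeR's quasi-likelihood test with the replicate as a block and Benjamini-Hochberg adjustment over all genes tested. Of the 10 members 9 could be tested, as VCAN was too low. All values come from the same 2 Control libraries, so the comparisons are not independent of one another. A library's level over all its cells mixes the share of each state with the level within it, and fewer cells of a type and less RNA per cell cannot be told apart there. The share of primed cells was 2.26% and 4.47% in Control, 29.1% and 31.3% in TGFB1, 2.26% and 4.32% in TGFBRi and 0.647% and 1.21% in PI3Ki. The states were therefore also compared separately.

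In drug-susceptible cells TGFB1 raised 6 of the 9 tested members and lowered 0 (14.9% of all 17914 genes tested changed, in either direction), with a median log2 fold change of 1.67. MGP was at 8.90 and 11.4 CPM in Control r1 and r2 and at 43.5 and 38.5 CPM with TGFB1, a rise of 2.02 ± 0.12 on the log2 scale (SE, edgeR adjusted p = 3.34e-11) or 4.06-fold. AEBP1 was at 151 and 144 CPM and rose to 517 and 467 CPM, by 1.73 ± 0.08 (edgeR adjusted p = 1.23e-13). Both genes are secreted matrix proteins, and in each case the libraries of the groups did not overlap.

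HTRA1 rose from 20.9 and 19.7 CPM to 59.8 and 48.6 CPM, by 1.40 ± 0.08 on the log2 scale (edgeR adjusted p = 4.71e-12). OLFML2A rose from 4.90 and 4.64 CPM to 17.4 and 13.4 CPM, by 1.67 ± 0.09 (edgeR adjusted p = 6.18e-12). BGN rose from 0.873 and 0.695 CPM to 3.88 and 3.22 CPM, by 2.16 ± 0.15 (edgeR adjusted p = 3.16e-10). In drug-susceptible cells BGN stayed far under its level in primed cells even after the rise. SPOCK1 rose from 0.0521 and 0.283 CPM, 4 and 22 UMIs, to 1.05 and 2.50 CPM, by 3.40 ± 0.29 (edgeR adjusted p = 5.03e-09). The TGFB1 libraries also held more primed cells, in which both genes are high. In TGFB1 r1 and r2 the drug-susceptible level was 3.94% and 6.12% of the level over all cells for SPOCK1 and 10.8% and 7.37% for BGN, against 42.4% and 39.5% for HTRA1, 98.8% and 88.4% for MGP and 98.0% and 94.2% for AEBP1. The part of RNA freed from primed cells in the low SPOCK1 and BGN levels was not tested. LUM, PRELP and DCN did not pass the test, at 0.10, 0.08 and 0.33 on the log2 scale (edgeR adjusted p = 0.385, 0.683 and 0.316). None of the 6 calls was lost in any of the 12 alternatives run, a left-out library and a fit without the block among them.

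The rise of MGP in drug-susceptible cells was present in single clusters and in the share of cells with an MGP UMI. Its level in pooled libraries of Control and TGFB1 was 6.52 and 19.6 CPM in cluster 0, 8.88 and 36.6 in cluster 1, 9.13 and 27.9 in cluster 5 and 12.6 and 47.1 in cluster 8. UMIs of MGP were seen in 9.61% and 13.1% of drug-susceptible Control cells and in 22.8% and 24.2% of those with TGFB1, or in 3.65% and 4.08% against 10.8% and 12% once cells were thinned to 5000 UMIs. The part of RNA freed from other cells in these shares was not tested. Drug-susceptible cluster 3, rich in MGP and AEBP1, held 2182 and 1619 cells in TGFB1 and 56 and 59 in Control.

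In primed cells TGFB1 had opposite results on members of the list: 4 rose, 3 fell and 2 did not pass (13.3% of 10930 genes tested changed). The numbers of primed cells were 94 and 165 in Control and 1577 and 1757 with TGFB1, most of them of cluster 10 in Control and of cluster 4 with TGFB1, so these changes are not those of a fixed cell cluster. HTRA1 rose from 45.5 and 61.2 CPM to 383 and 331 CPM, by 2.78 ± 0.16 on the log2 scale (edgeR adjusted p = 1.82e-17). AEBP1 rose from 121 and 133 CPM to 560 and 575 CPM, by 2.24 ± 0.13 (edgeR adjusted p = 5.75e-17). HTRA1, a protease, and AEBP1, a collagen-binding protein, thus rose with TGFB1 in both states. Within cluster 10 HTRA1 stood at 43.5 and 57.3 CPM in Control and 56.1 and 79.6 CPM with TGFB1, a smaller difference than over all primed cells, and AEBP1 at 122 and 133 against 472 and 543 CPM. SPOCK1 rose from 29.1 and 35.4 CPM to 103 and 148 CPM, by 2.08 ± 0.19 (edgeR adjusted p = 1.83e-11), a call that DESeq2 did not make (adjusted p = 0.325). BGN rose from 58.9 and 71.6 CPM to 132 and 157 CPM, by 1.21 ± 0.14 (edgeR adjusted p = 1.91e-08).

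MGP fell in primed cells. It was at 108 and 296 CPM in Control and 45.6 and 57.6 CPM with TGFB1, and fell by 1.94 ± 0.26 on the log2 scale (edgeR adjusted p = 1.51e-07). The test draws the spread of a gene partly from other genes. The Control libraries lay far apart for MGP, so this SE and p may understate its own spread. The call was lost with DESeq2 (adjusted p = 0.277) and without Control r2 (-0.69, edgeR adjusted p = 0.0808). DCN went from 5.22 and 6.44 CPM to 1.34 and 1.39 CPM, and fell by 2.04 ± 0.51 (edgeR adjusted p = 0.00330, DESeq2 adjusted p = 0.0539). The primed cells of all treatments together held 102 DCN UMIs, so these levels rest on few UMIs. PRELP went from 8.94 and 6.84 CPM to 1.54 and 2.28 CPM, and fell by 1.85 ± 0.42 (edgeR adjusted p = 0.00144), a call lost without Control r1 (adjusted p = 0.146) or TGFB1 r2 (adjusted p = 0.0666). LUM and OLFML2A did not pass, at -0.06 and 0.18 (edgeR adjusted p = 0.913 and 0.768).

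The clusters behind the primed levels differed between the treatments. In Control 248 of the 259 primed cells were of cluster 10 and 11 of cluster 4, whereas with TGFB1 80 of 3334 were of cluster 10 and 3254 of cluster 4. Within cluster 10 MGP stood at 116.7 and 307.6 CPM in Control (89 and 159 cells) and at 670.9 and 479.3 CPM with TGFB1 (29 and 51 cells). Within cluster 4 it stood at 34.3 and 45.6 CPM with TGFB1, and the 11 Control cells had 0 MGP UMIs, where the limit set by 3 counts over the group is 15.4 CPM. Within cluster 10 the level was thus higher with TGFB1 while the level over both clusters was lower, at 51.9 against 230.0 CPM, and 11 Control cells are too few to compare cluster 4. These within-cluster values rest on few cells and carry no test: 1 cell held 65 of the 145 MGP UMIs (44.8%) of the primed cells of Control r1 and 1 cell 227 of 735 (30.9%) in Control r2. The share of primed cells with an MGP UMI was 13.8% and 11.5% in Control and 11.4% and 12.1% with TGFB1 (8.60% and 11.7% against 5.96% and 7.52% after thinning).

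BGN and SPOCK1 behaved differently within cluster 10. BGN was at 63.6 and 71.6 CPM in Control and 42.1 and 14.6 CPM with TGFB1, and SPOCK1 at 31.4 and 36.8 against 5.61 and 19.5 CPM. In these few cells BGN and SPOCK1 were lower with TGFB1, although over all primed cells both rose.

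**Figure D4:**
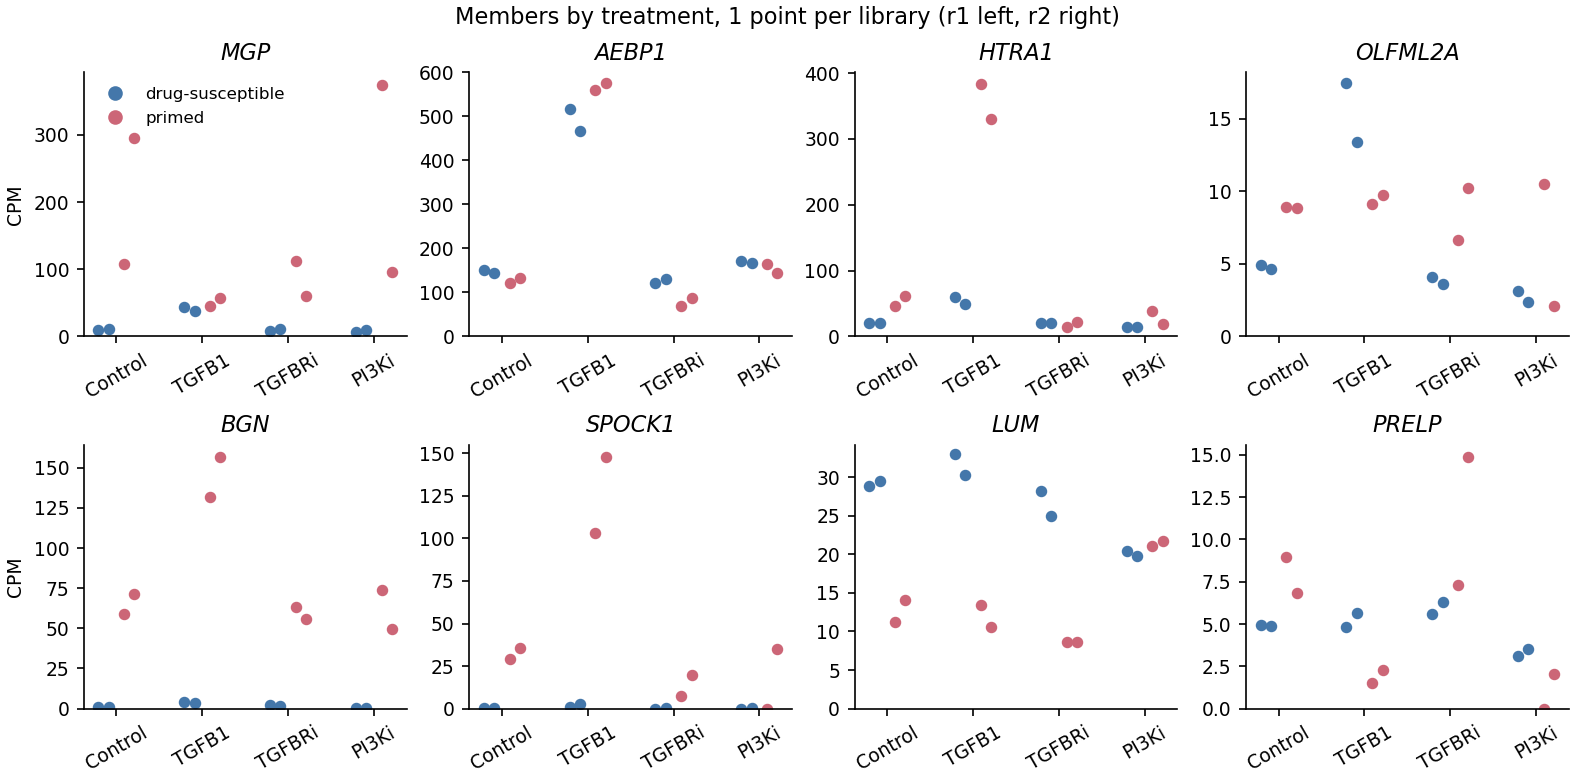
Level in CPM of 8 members in the drug-susceptible and primed cells of the treated WM989 libraries, with r1 on the left and r2 on the right of each treatment. With TGFB1 MGP is higher in drug-susceptible cells (43.5 and 38.5 against 8.90 and 11.4 in Control) and lower in primed cells (45.6 and 57.6 against 108 and 296), whereas AEBP1 and HTRA1 are higher in both.

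The receptor inhibitor moved few members. In drug-susceptible cells 1 of 9 rose and 0 fell (2.81% of all genes tested changed). BGN was at 0.873 and 0.695 CPM in Control and 2.20 and 1.80 CPM with TGFBRi, a rise of 1.36 ± 0.16 on the log2 scale (edgeR adjusted p = 1.11e-05) that no alternative ended, so at this low level BGN was higher with TGFB1 and higher with its receptor inhibitor. In primed cells 3 of 9 fell and 0 rose (0.375% of genes changed). HTRA1 went from 45.5 and 61.2 CPM to 14 and 21.2 CPM, and fell by 1.56 ± 0.23 (edgeR adjusted p = 4.65e-05, 0.0764 without Control r2). AEBP1 went from 121 and 133 CPM to 68.7 and 87.6 CPM, and fell by 0.68 ± 0.15 (edgeR adjusted p = 0.0245), a call lost in 7 alternatives, among them the fit without the block (adjusted p = 0.120). HTRA1 and AEBP1 were thus higher with TGFB1 and lower with the inhibitor in primed cells. MGP stood at 112 and 60.5 CPM in 118 and 271 primed cells, and its change of -1.37 ± 0.29 (edgeR adjusted p = 0.0148) was lost without the block (adjusted p = 0.279), with DESeq2 (adjusted p = 0.986), without TGFBRi r2 (-0.78) and without Control r2, where it was -0.16.

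The PI3-kinase inhibitor lowered 4 of 9 members in drug-susceptible cells and raised 1 (12.1% of genes changed). LUM was at 28.9 and 29.4 CPM in Control and 20.4 and 19.8 CPM with PI3Ki, and fell by 0.44 on the log2 scale (edgeR adjusted p = 0.000174). OLFML2A was at 4.90 and 4.64 CPM against 3.12 and 2.36 CPM, and fell by 0.72 (edgeR adjusted p = 7.15e-05). PRELP (4.93 and 4.88 CPM against 3.10 and 3.50) and HTRA1 (20.9 and 19.7 CPM against 14.9 and 14.4) fell by 0.47 and 0.37 (edgeR adjusted p = 0.00302 and 0.00265). AEBP1 was the exception, at 151 and 144 CPM against 171 and 166 CPM, a rise of 0.29 (edgeR adjusted p = 0.0105). The calls of PRELP, HTRA1 and AEBP1 were lost in edgeR without the block (adjusted p = 0.0542, 0.0871 and 0.0881). That of AEBP1 was also lost without any 1 of the Control and PI3Ki libraries (adjusted p = 0.0624 to 0.207), that of PRELP without Control r1 or PI3Ki r1 (0.0972 and 0.0669) and that of HTRA1 without PI3Ki r1 (0.124). In the 25 and 70 primed cells of PI3Ki 1 member fell (1.78% of genes changed): HTRA1, at 38.6 and 18.7 CPM, fell by 1.26 ± 0.31 (edgeR adjusted p = 0.0212, 0.0809 without the block). The call was also lost without Control r2 (-0.91, adjusted p = 0.419) and without PI3Ki r2 (-0.62, adjusted p = 0.625). MGP there was at 375 and 95.4 CPM, of which 64 of 107 and 46 of 92 UMIs lay in 1 cell each, and did not pass the test (-0.24, edgeR adjusted p = 0.854).

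Over all cells of a library, TGFB1 raised 6 of 9 members (29.0% of genes changed), with MGP at 10.6 and 20.2 CPM in Control and 44.1 and 43.5 CPM with TGFB1 (1.55 on the log2 scale) and BGN at 1.87 and 2.89 against 36.0 and 43.7 CPM (4.05). BGN changed more over all cells than in either state alone. The share of primed cells, where BGN is high, was larger in the same libraries, and its part in that change was not tested. TGFBRi raised 1 member, BGN, by 0.57 (2.53% of genes changed, edgeR adjusted p = 0.00552, 0.317 without the block and 0.198 without Control r1). MGP was not called there (-0.41, adjusted p = 0.117) but was called lower in 4 alternatives, with no filter (adjusted p = 8.71e-05), without Control r1 (0.000171) and without TGFB1 r1 or r2 (0.0414 and 0.0404). PI3Ki lowered 7 and raised 1 (12.7% of genes changed), with BGN at 0.840 and 0.972 CPM and SPOCK1 at 0.0285 and 0.466 CPM falling by 1.29 and 1.66. The SPOCK1 call was lost with DESeq2 (adjusted p = 0.0917), without the block (0.289) and without Control r2 (0.0867), that of PRELP without the block (0.0526) and without Control r1 (0.0890), and that of AEBP1, the member that rose, without the block (0.0612) and without any 1 of the Control and PI3Ki libraries (0.0515 to 0.205). MGP fell by 0.66 (edgeR adjusted p = 0.00200), a call lost without the block (adjusted p = 0.150), with DESeq2 (adjusted p = 0.140) and without Control r2 (-0.28, adjusted p = 0.266) or PI3Ki r2 (adjusted p = 0.0765).

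The chromatin libraries held 213412 to 271153 peaks each, called in every library separately, with median fold enrichment of 8.32 to 9.62. At the gene starts, 5 members had a peak in all 12 libraries at the start of the gene record (MGP, LUM, PRELP, AEBP1 and OLFML2A), and 7 at the start of the canonical transcript, which adds HTRA1 and SPOCK1. DCN and VCAN had none there in any library. By limma 0 of these members were called in any sort against Mix, at either start. The median promoter stood at -0.07, 0.14 and 0.07 on the log2 scale in EGFR_High, NGFR_High and EGFR_NGFR_High. The shares called over all promoters were 0.637% for EGFR_High, 1.63% for NGFR_High and 1.54% for EGFR_NGFR_High at the gene record, and 0.542%, 1.56% and 1.49% at the canonical start. At an unadjusted p under 0.05 were 11.9%, 17.4% and 12.2% of all promoters at the gene record in EGFR_High, NGFR_High and EGFR_NGFR_High. Members under it were PRELP in all 3 sorts (0.47, 0.45 and 0.61 on the log2 scale, limma adjusted p = 0.261, 0.184 and 0.10), LUM (-0.44) and AEBP1 (0.54) in NGFR_High (limma adjusted p = 0.238 and 0.176), and HTRA1 at its canonical start in NGFR_High and EGFR_NGFR_High (0.58 and 0.61, limma adjusted p = 0.208 and 0.27).

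MGP RNA was 13.5 times lower in the primed cells of the untreated series and 4.55 times higher in those of the treated libraries. The promoter of MGP was open in every sort. The region over its start also overlaps an exon of C12orf60 on the opposite strand, as that over the BGN start overlaps HAUS7, so the peak there cannot be assigned to 1 gene. Its fold enrichment was 15.7, 14.1 and 11.6 in Mix, 18.4, 11.4 and 17.1 in EGFR_High, 12.7, 12.7 and 14.1 in NGFR_High and 12.5, 11.3 and 9.92 in EGFR_NGFR_High. The ranges overlapped between Mix and each sort, and the difference from Mix was 0.16, -0.06 and -0.29 on the log2 scale (SE 0.18 each, limma adjusted p = 0.796, 0.879 and 0.565). AEBP1 had 14.8, 11.8 and 19.8 in Mix against 23.1, 24.9 and 18.3 in NGFR_High.

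Within 10 kb of the 10 genes lay 113 merged regions, of which 43 had a peak in all 12 libraries and could be tested. Called higher than Mix were 2 in EGFR_High, 5 in NGFR_High and 6 in EGFR_NGFR_High, and 0 were called lower. The shares called over all 78177 regions with a peak in 12 libraries were 8.01%, 10.6% and 11.2% in either direction, and the members' counts, 2, 5 and 6 of 43, are to be read against them. The median region stood at -0.16, 0.05 and 0.04 on the log2 scale, and with every library centred on its median 3, 5 and 5 member regions were called, all higher. Centring raised the share of calls that were higher over all regions from 23.8% to 68.8% in EGFR_High, so a direction there rests on the scaling, while the region at DCN and the intron of VCAN described next were called higher both ways. These tests of regions were added after the data were seen.

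The region with the largest difference lay at the 3′ end of DCN (chr12:91140032-91140995), which like VCAN had no peak in the window at its start. Its fold enrichment was 6.72, 4.71 and 5.81 in Mix, 14.9, 9.46 and 12.2 in EGFR_High, 21.5, 12.7 and 15 in NGFR_High and 22.0, 17 and 19.4 in EGFR_NGFR_High. The 3 sorts lay above Mix in every library, by 1.08 ± 0.22, 1.49 and 1.77 on the log2 scale (limma adjusted p = 0.0101, 0.000604 and 0.000112). The first of these calls was lost without EGFR_High 1 (limma adjusted p = 0.0579).

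An intron of VCAN, which had almost no RNA in WM989, held a region (chr5:83548297-83549019) at 5.82, 5.66 and 6.78 in Mix and 17.5, 14.2 and 12.7 in EGFR_High, a rise of 1.27 on the log2 scale (limma adjusted p = 0.00193). In NGFR_High it stood at 9.94, 11.4 and 8.93 and in EGFR_NGFR_High at 12.5, 9.92 and 8.44, rises of 0.73 and 0.74 (limma adjusted p = 0.0206 and 0.0168) that were each lost in some left-out libraries. An intron of PRELP (chr1:203480105-203481241) stood at 7.17, 5.66 and 3.87 in Mix, at 12.8, 19.9 and 9.43 in EGFR_NGFR_High (1.31, limma adjusted p = 0.00356) and at 10.3, 8.75 and 13.2 in NGFR_High (0.97, limma adjusted p = 0.0233, lost without Mix 2 or 3 and without NGFR_High 1 or 3, at adjusted p up to 0.107). PRELP RNA was lower in the primed cells of 6 of 8 untreated wells and higher in those of 4 of 8 treated libraries.

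SPOCK1, the gene with the largest RNA difference, had a called region in an intron (chr5:137319846-137320742), at 5.82, 4.71 and 3.87 in Mix and 11.1, 10.9 and 8.93 in NGFR_High (1.12, limma adjusted p = 0.00319). An intron of HTRA1 (chr10:122468665-122469823) was at 13.4, 22.2 and 15.5 in Mix and 34.5, 28.8 and 29.3 in EGFR_NGFR_High (0.89 ± 0.22, limma adjusted p = 0.0147), without overlap, and lost the call without Mix 1, Mix 3 or EGFR_NGFR_High 1 (adjusted p up to 0.0733). Other calls were a VCAN exon in NGFR_High (0.72, limma adjusted p = 0.0144, up to 0.0635 in left-out libraries) and the start region of PRELP in EGFR_NGFR_High (0.61, limma adjusted p = 0.0448, 0.0743 once libraries were centred).

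**Figure D5:**
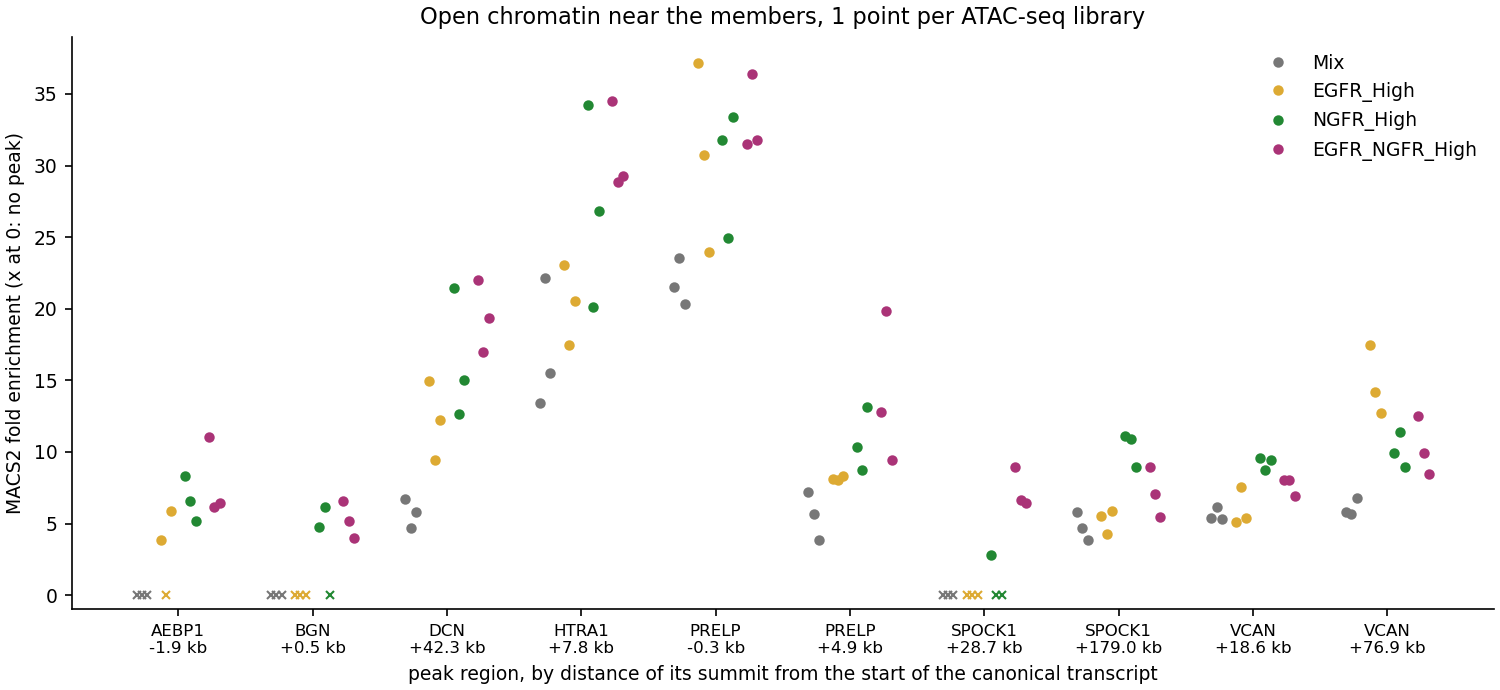
Fold enrichment of open chromatin over background in each of the 12 libraries for 10 regions near the members, named by gene and distance from the canonical start, with a cross at 0 where a library had no peak. The region at the 3′ end of DCN lies at 4.71 to 6.72 in Mix and 17 to 22.0 in EGFR_NGFR_High.

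A peak present in a sort and absent from Mix was seen at other regions. For all 230071 merged regions, 1.04% had a peak in the 3 EGFR_High libraries and in 0 of Mix, 2.32% for NGFR_High and 3.16% for EGFR_NGFR_High, against 0, 3 and 3 of the 113 regions of the members. The reverse held for 0.749%, 0.679% and 0.558% of all regions and for 2, 0 and 0 of the members', both in SPOCK1. Upstream of AEBP1 (chr7:44101985-44102890, summit 1941 bases before the start) there was no peak in Mix, peaks of 3.84 and 5.87 in 2 EGFR_High libraries, of 8.35, 6.56 and 5.17 in NGFR_High and of 11, 6.14 and 6.45 in EGFR_NGFR_High. AEBP1 RNA was lower, not higher, in primed untreated cells. In a SPOCK1 intron (chr5:137470516-137471018) peaks of 8.93, 6.62 and 6.45 were called in EGFR_NGFR_High and a peak of 2.78 in 1 NGFR_High library, with none elsewhere. In a BGN intron (chrX:153495433-153495619) peaks of 6.55, 5.2 and 3.97 were called in EGFR_NGFR_High and of 4.77 and 6.12 in 2 NGFR_High libraries, with none elsewhere. That region also overlaps an exon of HAUS7, a gene on the opposite strand. A peak missing from a library can be a peak just under the caller's threshold, and these counts carry no test.

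Windows of 300 bases around the summits of 7 of these regions, those without an exon, were read, of which 5 held TGANTCA and 2 did not. The sequences of 3 are shown, chosen among those with these letters at genes that differed by state or treatment, so the presence of the letters in those shown is not a result. They are of the hg38 plus strand, and capitals mark the letters TGANTCA read on either strand. The windows are chr7:44102254-44102553 upstream of AEBP1, with 1 match, chr5:137470501-137470800 in the SPOCK1 intron, with 2, and chr10:122469221-122469520 in the HTRA1 intron, with 1.

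AEBP1 upstream region: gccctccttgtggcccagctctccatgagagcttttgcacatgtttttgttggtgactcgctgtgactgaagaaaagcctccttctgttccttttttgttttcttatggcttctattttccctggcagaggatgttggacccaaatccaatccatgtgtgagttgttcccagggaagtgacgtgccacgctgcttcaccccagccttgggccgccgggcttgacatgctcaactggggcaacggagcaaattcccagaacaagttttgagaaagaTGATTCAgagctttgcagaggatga
SPOCK1 intron region: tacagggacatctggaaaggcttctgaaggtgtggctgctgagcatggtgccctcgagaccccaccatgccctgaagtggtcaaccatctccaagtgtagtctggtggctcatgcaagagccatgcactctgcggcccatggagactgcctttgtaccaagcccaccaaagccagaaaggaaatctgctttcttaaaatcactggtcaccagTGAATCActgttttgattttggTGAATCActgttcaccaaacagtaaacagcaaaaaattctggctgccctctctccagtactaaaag
HTRA1 intron region: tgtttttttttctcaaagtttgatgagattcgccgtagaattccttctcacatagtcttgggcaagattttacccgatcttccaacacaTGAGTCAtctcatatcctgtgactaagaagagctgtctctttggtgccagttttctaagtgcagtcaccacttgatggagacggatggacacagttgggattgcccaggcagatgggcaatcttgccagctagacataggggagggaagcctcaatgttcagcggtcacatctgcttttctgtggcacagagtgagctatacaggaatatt

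The letters TGANTCA occurred in 19.8% of the windows of all merged regions and in 14 of the 113 member regions (12.4%), so they were not more frequent near the members. TCATGTG, an M-box that MITF can bind, occurred in 6.53% and in 5 member regions (4.42%), and GGAATG, which TEAD factors can bind, in 20.2% and in 28 (24.8%). Each word was read on both strands and counted apart from the others, and a match is a description of the letters alone. Of 35116 RefSeq promoters of the same length, 7.71% held TGANTCA, 2.92% TCATGTG and 14% GGAATG. Promoters of 5 of the 10 members were found there (BGN, HTRA1, PRELP, VCAN and OLFML2A, the last with 2 starts), none with TGANTCA, and GGAATG occurred in that of PRELP and in 1 start of OLFML2A.

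Across clusters BGN and SPOCK1 were alike in both WM989 experiments, whereas the members most like MGP differed between them. BGN and SPOCK1 had a Pearson r of 0.975 over the 11 untreated clusters and 0.972 over the 13 treated clusters, on log2(CPM + 1). Over the untreated clusters HTRA1 (0.961 with BGN, 0.930 with SPOCK1) and DCN (0.928 and 0.923) were close to both. Over the treated clusters these values were 0.864 and 0.870 for HTRA1 and 0.750 and 0.663 for DCN. MGP was on the side of PRELP (0.854) and AEBP1 (0.826) and away from BGN (-0.597) in untreated cells. In treated cells the member most like it was DCN (0.870), with BGN at 0.767, AEBP1 at 0.371 and PRELP at 0.347. PRELP and AEBP1 were alike in untreated (0.911) and not in treated clusters (-0.110). Clusters were defined from these counts and share wells, so r is given as a description.

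Among the 7020 genes at 20 CPM or more in a cluster, those most like MGP over the untreated clusters included FRMD6-AS1 (r = 0.936) and MTRNR2L1 (0.913), the last a near copy of a mitochondrial RNA whose counts are uncertain. Over the treated clusters (6912 genes) the 3 most like it were ITGB5 (0.926), S100A6 (0.919) and FYN (0.907). The nearest to BGN were SFRP1, IGFBP7 and DPYSL2 in untreated and GNG2, CAV1 and COL1A1 in treated cells. SPOCK1 was nearest to OLFML2B, ALOX5AP and SRPX2 and then to FAP, STEAP3 and NR2F1. AEBP1 was nearest to PCDH7, PRELP and CRYL1 and then to ASAP2, PALLD and SKIL, and HTRA1 to PCOLCE, SAMD9 and IL13RA1 and then to SLC29A1, SLC25A37 and NKD1. OLFML2A, over the treated clusters, was nearest to IGFBP5, CCN2 and MFGE8, and LUM to AIFM1, ACADM and OPA1. Over the untreated clusters LUM was nearest to TP53RK, NUDT16L1 and SLC39A1 and PRELP to RHOBTB3, RALGPS2 and AEBP1.

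The wider families of the members were read in the same tests, beside 14.9% of all genes called in drug-susceptible cells with TGFB1. Of 18 small leucine-rich proteoglycans 8 could be tested in drug-susceptible cells with TGFB1, and 4 rose and 0 fell. They were BGN, TSKU (0.32 on the log2 scale) and, both under the level set for naming a gene and named here after their results were seen, PODNL1 and CHADL. Of the hyalectans and their partners 0 of 6 rose and 1 fell, the brain proteoglycan BCAN (-0.62 on the log2 scale). In the olfactomedin family 4 of 5 rose and 0 fell, and of the SPARC family 2 of 3 rose, SPOCK1 and SPARC (0.27). In the carboxypeptidase family of AEBP1 2 of 5 rose, AEBP1 itself and CPN1 (0.29), and 1, the gene of carboxypeptidase M, fell (-0.49), and of the 2 HtrA proteases tested 1 rose, HTRA1.

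The vitamin K group gave 2 that rose, MGP and the low GAS6, also named after its result was seen, and 1 that fell, the quinone reductase NQO1 (-0.45), of 9. Of 20 genes of chondroitin and dermatan sulfate synthesis 6 rose and 1 fell, among them XYLT1, the enzyme that starts the chains (1.43, edgeR adjusted p = 5.11e-11), and CHPF (0.45), CHPF2 (0.39) and B4GALT7 (0.31). Cell surface proteoglycans gave 6 that rose, with GPC1 (0.52) and SDC4 (0.24), and 3 that fell, TGFBR3 (-0.95), SDC3 (-0.45) and CSPG4 (-0.33), of 18. Of 11 genes of the bone morphogenetic protein pathway, whose ligands MGP binds, 3 rose and 2 fell with TGFB1 (ID3 0.48, ID2 -0.32). With TGFBRi 0 of the 11 rose and 4 fell, and with PI3Ki 4 rose and 1 fell. The targets ID3, ID1 and ID2 fell by 3.02, 2.27 and 0.86 with TGFBRi and rose by 1.76, 1.69 and 1.25 with PI3Ki in drug-susceptible cells (2.81% and 12.1% of all genes called). MGP passed neither test there, at -0.27 with PI3Ki (edgeR adjusted p = 0.210), and was called lower with PI3Ki with no filter on low counts (adjusted p = 0.0230) and without TGFB1 r1 or r2 (0.0347 and 0.0324).

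In primed cells with TGFB1 13.3% of all genes were called. Small leucine-rich proteoglycans gave 1 that rose and 2 that fell of 6 tested, the olfactomedin family 0 and 2 of 3 (OLFML3 -1.47, OLFML2B -1.21), and the vitamin K group 0 and 3 of 9 (MGP, PROS1 -1.46, NQO1 -1.12). Cell surface proteoglycans gave 3 and 6 of 12, with SDC1 at 2.67 and SRGN at -2.70. OLFML2B and OLFML3, relatives of OLFML2A that were over 2-fold higher in untreated primed cells, thus fell in primed cells where OLFML2A itself did not pass the test.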

How the data were processed

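Single cells were captured with a 10x 3′ kit. The deposited values are UMI counts per gene and cell that the authors made with Cell Ranger (hg38; version not given in the sources used here) and filtered on genes detected and mitochondrial share, also against likely doublets. No doublet caller was run here. The deposited cell tables gave cluster, state, well, treatment and replicate. For the OMNI-ATAC libraries the authors aligned reads with Bowtie2 2.3.4.1, used SAMtools 1.1, and called peaks per library with MACS2 2.1.1.20160309. Per the file headers each deposited peak has a fold enrichment, a linear ratio over background, and −log10 p and q values. Depth behind a peak is unknown.

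The 10 members and all gene and marker lists were chosen with earlier results of these data known. Counts were summed per library and state. Treatments were tested with edgeR 4.0.16 (R 4.3.3; filterByExpr, TMM, quasi-likelihood test, replicate block, Benjamini-Hochberg threshold 0.05 over 18389, 17914 and 10930 genes for all, drug-susceptible and primed cells), with at least 20 primed cells a library. DESeq2 1.42.0, no block, no filter and left-out libraries were alternatives. The replicate is a block because the methods run each replicate in parallel through all treatments. The r2 minus r1 differences correlated between treatments at 0.257 to 0.365 over all cells, 0.247 to 0.358 in drug-susceptible and 0.025 to 0.146 in primed cells. Cells were thinned to 10000 UMIs (untreated WM989), 30000 (WM983B) or 5000 (treated, leaving out 33 cells) for shares.

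Peaks were assigned to a gene from 1000 bases before to 500 after its start (GENCODE 44), and the log2 of the highest fold enrichment was tested with limma 3.58.1 over 18848 genes with a peak in all 12 libraries. Regions were peaks merged over libraries, taken within 10 kb of a member and tested over 78177 regions. This test and the canonical starts were added after the data were seen. Whether libraries of a group came from separate cultures is not always given, and p-values measure the spread between libraries, which may be technical. Both edgeR and limma estimate that spread partly from all features tested. An SE can thus be smaller than the libraries of that gene alone would give.

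Named genes are the members, the 3 genes most correlated with a member whose highest cluster reached 20 CPM, and up to 5 family genes per comparison past the threshold with a mean of at least 5 CPM; 1 gene that the rule on correlation names and 1 chromatin region are not reported here. In simulated counts with 200 changed genes the TGFB1 test recovered 88.5%, 75.9% and 85.6% of 2-fold changes in all, drug-susceptible and primed cells, and limma 79% for NGFR_High over 18848 promoters. Levels, clusters and figures used Python 3.11.15, pandas 2.3.3, scipy 1.17.1 and matplotlib 3.10.9. Sequences are from RefSeq promoter entries (GRCh38.p14) and the hg38 genome.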

Additional observations from a re-analysis of the deposited data

Results flagged for a closer look

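MGP differed between the WM989 experiments in the direction of its state difference: lower in primed cells in 8 of 8 untreated wells (log2 ratio -3.75) and higher in primed cells in 8 of 8 treated libraries (2.19), a gap of 5.94 on the log2 scale. The share of cells with an MGP UMI was 3.52% in primed and 20.7% in drug-susceptible untreated cells, and 12.2% and 12.3% in treated cells. The treated primed cells were shallower, at a median of 11211 against 16825 UMIs a cell. After thinning the shares were 1.02% and 7.33% in untreated and 7.66% and 5.16% in treated cells. The difference between experiments was not tested.

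The changes of MGP and DCN with TGFB1 had opposite signs in the states, in each library of r1 and r2. MGP rose in drug-susceptible and fell in primed cells, a difference of -3.97 between the log2 changes. The fall in primed cells was lost with DESeq2 (adjusted p = 0.277) and without Control r2 (-0.69, edgeR adjusted p = 0.0808), and the primed cells lay mostly in cluster 10 in Control and in cluster 4 with TGFB1. Within cluster 10 MGP stood at 116.7 and 307.6 CPM in Control and 670.9 and 479.3 CPM with TGFB1. DCN went from 0.33 in drug-susceptible to -2.04 in primed cells, a difference of -2.38, of which the first value did not pass the test. LUM with PI3Ki went from -0.44 in drug-susceptible to 0.71 in primed cells, a difference of 1.15, of which the second value did not pass the test. None of these differences between states was tested.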

How the results depend on the processing

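Without the replicate block TGFBRi gave 40 genes over all cells (466 with it), 47 in drug-susceptible (503) and 9 in primed cells (41), PI3Ki 649 (2328), 570 (2170) and 87 (195), and TGFB1 3599 (5324), 1189 (2665) and 1358 (1454). With DESeq2 TGFBRi gave 326 in drug-susceptible and 16 in primed cells and TGFB1 693 in primed cells. With no filter TGFBRi gave 748 over all cells. With enrichment summed over peaks 17, 185 and 155 promoters were called in EGFR_High, NGFR_High and EGFR_NGFR_High (120, 307 and 290). In the chromatin libraries same-numbered samples correlated at -0.033 to 0.138, which does not pair them, and the replicate block gave 126, 345 and 346 promoters and 7576, 9686 and 9979 regions (6265, 8311 and 8751). Centring the chromatin libraries moved the share of calls that were higher from 29.2% to 50.9% of promoters in EGFR_High, from 74.6% to 46.0% in NGFR_High and from 77.2% to 66.3% in EGFR_NGFR_High.

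With a library left out, TGFB1 gave 3164 to 6377 genes over all cells, 988 to 3722 in drug-susceptible and 584 to 1726 in primed cells, TGFBRi 168 to 1146, 206 to 1247 and 17 to 63, and PI3Ki 719 to 3298, 632 to 3286 and 96 to 239. Promoters ranged from 21 to 150 in EGFR_High, 59 to 322 in NGFR_High and 124 to 287 in EGFR_NGFR_High, and regions from 1744 to 6660, 3626 to 8748 and 5478 to 8863. The state difference of MGP ranged from -4.61 to -3.29 in untreated (-3.75) and 1.93 to 2.36 in treated cells (2.19), and thinned it was -3.95 and 1.98.

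MGP with PI3Ki in primed cells, -0.24 with all libraries, ranged from -1.29 without PI3Ki r1 (edgeR adjusted p = 0.00307) and -0.97 without Control r1 (adjusted p = 0.0424) to 0.98 without Control r2, with its sign reversed (adjusted p = 0.0357). Sign changes without a call were tallied over the alternative settings of members and called regions. There were 4 for all cells and regions pooled, 8 in drug-susceptible cells, 10 in primed cells and 7 at promoters. Where a call depends on the setting, the cause was not tested. Primed Control and PI3Ki libraries of 25 to 165 cells limit the primed comparisons.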

Other observations

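Genes whose cluster pattern was most like that of MGP are given with their changes with TGFB1, whose differences from that of MGP were not tested. ITGB5 and S100A6 rose in drug-susceptible cells by 0.51 and 0.55 on the log2 scale (edgeR, MGP 2.02) and stood at -0.83 and -1.31 in primed cells (MGP -1.94), and FRMD6-AS1 stood at 0.46 and 0.65. FYN stood at 0.18 and -0.19 and MTRNR2L1 at -0.15 and -0.28, and neither passed the test in either state.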
